A study of Mus musculus with 2 samples.

Results

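Mature retinal pigment epithelium (RPE) cells that carried the most melanogenesis transcripts were compared with the other mature RPE cells of the same mice. Eligible cells had at least 500 genes, at most 5% of their unique molecular identifiers (UMIs, which count captured transcripts) from mitochondrial genes, at least 5000 UMIs and at least 5% of UMIs from Ttr, which encodes the retinol carrier transthyretin and is the leading RPE transcript. The score of a cell was its summed UMIs per 10000 of Pmel, Mlana, Gpnmb, Trpm1, Dct and Tyrp1, and the members were the 10% of eligible cells with the highest score within each mouse. This gave 407 members of 5838 cells in all, with 213 members of 2844 cells in mouse R1 and 194 of 2994 in mouse R2. The reference was formed by the other eligible cells, 1914 in R1 and 1751 in R2. Since these 6 genes and Ttr chose the members, their levels are given below as a description.

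The study profiled single RPE cells from 2 male C57BL/6J mice by droplet-based RNA sequencing to look for heterogeneity within the epithelium, and there was a single condition without treatment. The mice were 4 to 5 weeks old (postnatal day 36), both eyes of a mouse were pooled into 1 library, and the cells were released with trypsin and sorted as positive for the viability dye calcein AM and negative for DAPI. The genes listed received 26034378 UMIs in R1 and 29732969 UMIs in R2. A small cluster of the study, C1, had high melanogenesis transcripts and low visual cycle transcripts. C1-like cells, defined here as filtered cells with less than 2% Ttr and at least 1 UMI each of Pax6 and Dkk3, numbered 43 in R1 and 11 in R2 and served as a point of comparison. Of the cell barcodes, 12 occurred in both libraries, and 2 members carried such a barcode.

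RPE cells make most of their melanin before and around birth. Tyrosinase (Tyr) carries out the rate-limiting step, and dopachrome tautomerase (Dct) and tyrosinase-related protein 1 (Tyrp1) act on the later intermediates. Pmel forms the fibrils on which melanin is laid down, Mlana assists the maturation of Pmel, Gpnmb is a glycoprotein of melanosomes and lysosomes, and Trpm1 is a cation channel found in pigment cells. Transcription of many pigment genes is driven by MITF, which binds E-box sequences, and by OTX2 in the RPE. In the mature epithelium the visual cycle regenerates 11-cis-retinal for the photoreceptors, with Lrat forming retinyl esters, Rpe65 isomerising them, Rdh5 oxidising the product, Rlbp1 binding it and Rgr acting as a retinal-binding opsin.

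The promoters are shown because the score genes were summed as if they were 1 programme, and these sequences let their control regions be compared. In the RefSeq promoters (GRCm38.p6, 250 bases before to 50 after a start), 4 of the 6 score genes had an entry, with 5 promoters in all. The M-box, TCATGTGCT, occurred in 2 of the 5, those of Dct and Tyrp1, and in 0.408% of 32851 promoters. The shorter E-box CATGTG, which the M-box contains, occurred in 4 of the 5 and in 14.2% of all promoters, CACGTG in 1 and in 7.15%, and the OTX motif GGATTA in 3 and in 7.06%, with both strands searched throughout. In Dct the M-box lay 151 to 143 bases before the start, and in Tyrp1 47 to 39 bases before it. Capitals mark the M-box, either E-box or the OTX motif on either strand. The stretch of Dct is chr14:118052247-118052496 (minus strand), that of Trpm1 chr7:64153585-64153834 (plus strand) and that of Serpine3, which had the largest fold change outside the score among genes with at least 0.5 UMIs per 10000, chr14:62663417-62663666 (plus strand), each being the 250 bases before the start. For Tyrp1 only the 30 bases around the M-box, chr4:80834156-80834185 (plus strand), are shown.
Dct: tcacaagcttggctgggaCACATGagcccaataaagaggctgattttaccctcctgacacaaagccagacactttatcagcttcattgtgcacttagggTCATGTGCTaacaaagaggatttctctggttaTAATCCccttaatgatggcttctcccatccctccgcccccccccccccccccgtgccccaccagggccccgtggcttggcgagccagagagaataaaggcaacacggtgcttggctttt
Tyrp1: ggggagggagTCATGTGCTgcctagtagtt
Trpm1: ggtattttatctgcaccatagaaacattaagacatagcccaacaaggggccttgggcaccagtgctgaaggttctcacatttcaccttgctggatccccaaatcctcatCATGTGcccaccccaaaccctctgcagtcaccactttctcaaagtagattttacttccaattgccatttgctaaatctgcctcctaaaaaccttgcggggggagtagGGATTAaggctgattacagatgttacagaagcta
Serpine3: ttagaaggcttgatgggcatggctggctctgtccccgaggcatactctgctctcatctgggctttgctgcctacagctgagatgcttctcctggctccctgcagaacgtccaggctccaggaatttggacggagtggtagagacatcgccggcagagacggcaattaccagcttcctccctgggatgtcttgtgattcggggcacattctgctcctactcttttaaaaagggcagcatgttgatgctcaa
None of these motifs was present in the Serpine3, Cox8b or Gpnmb window. Tyr, which was not called, held the M-box. The other genes searched were the 10 that rose most under the naming rule and a few of pigment, all described below. Among them CATGTG lay in a promoter of Upk3b, Wfikkn2, Ggt1, Itpr3 and Slc24a5. CACGTG lay in a promoter of Ggt1 and of Itpr3, and the OTX motif in one of Aldoc. A match is a match of letters and not a measured binding site.

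The score varied continuously among eligible cells and showed no gap at the members' edge. Its median was 40.0 UMIs per 10000 in members and 10.5 in the other cells of R1, and 23.0 and 8.23 in R2. The lowest member had 29.3965 and the highest other cell 29.3524 in R1, against 19.6321 and 19.6271 in R2, so the edge lay lower in R2. The highest score was 176.9 in R1 and 94.5 in R2, still below the C1-like medians of 267 and 235. Members were shallower than the other cells, with a median of 7899 against 10302 UMIs in R1 and 10088 against 12205 in R2, and a few UMIs move a share more in a shallow cell. The mitochondrial share was 1.54% in members and 1.21% in other cells of R1, and 1.38% and 1.21% in R2. Choosing members within 10 depth groups brought the ratio of the medians from 0.767 and 0.827 to 1.00 and 0.995, and 72.8% and 83.5% of the members stayed the same. The part of the mitochondrial share in the results was not tested.

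**Figure D1:**
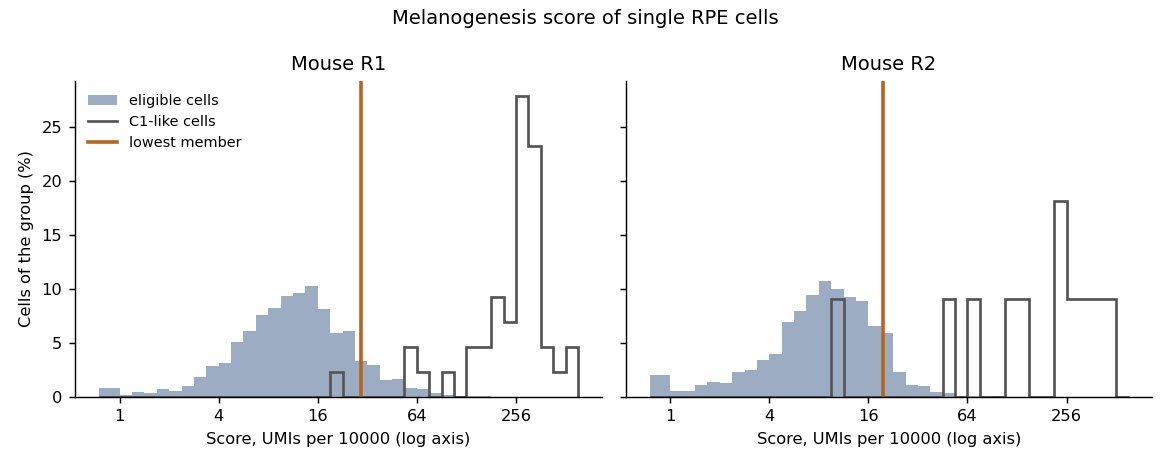
Histograms of the melanogenesis score (UMIs per 10000 from 6 genes, log axis, the leftmost bar holding cells below 1) as the percent of eligible cells and of C1-like cells in each mouse. The line at the lowest member (29.4 in R1, 19.6 in R2) cuts a single continuous hump, and 35 of 43 and 8 of 11 C1-like cells lie above all eligible cells.

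Dct gave most of the score. It accounted for 52.7% of the members' score UMIs in R1 and 57.8% in R2 and was the leading score gene in 186 and 163 members. Summed over cells, the Dct level was 24.4 UMIs per 10000 in members and 6.96 in other cells of R1, and 15.1 and 5.31 in R2. The Pmel level differed most in proportion, being 3.18 against 0.161 in R1 and 1.10 against 0.0804 in R2. Its gene overlaps Cdk2 and Dgka on the opposite strand, and whether the counting used strand is not given in the sources used here, so its UMIs are uncertain. Mlana stood at 5.93 against 1.57 and 3.50 against 1.14, and Gpnmb at 4.97 against 0.926 and 2.03 against 0.627. Trpm1 levels were 3.70 against 0.431 and 1.87 against 0.255, and those of Tyrp1 4.08 against 1.41 and 2.49 against 1.09. All 6 levels in members were lower in R2 than in R1.

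The members were not alike in which score genes were detected in them. At 5000 UMIs per cell, a common depth reached by random thinning, all 6 genes were detected in 59 members of R1 (27.7%) and 10 of R2 (5.15%), against 5 and 0 of the other cells. At most 2 of the genes were detected in 5 and 42 members. A count of 0 at this depth does not show that a cell lacked a transcript. Mean counts in R2 members were 0.58 for Pmel, 0.99 for Trpm1 and 1.14 for Gpnmb. How many such zeros sampling alone would give was not tested. Dct was spread evenly, with a median of 11 UMIs in R1 and 7 in R2 and 20.8% and 19.9% of its UMIs in the 10% of members with most of it. Pmel was concentrated, with a median of 0, a highest value of 28 and 20, and 58.3% and 84.1% of its UMIs in the leading 10% of members. Gpnmb reached 25 UMIs in a single R1 member and 8 in R2, with medians of 2 and 1.

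Whether a score gene follows the others was tested by rebuilding the score from the other 5 genes and reading the gene left out, which such a choice does not use. Tests ran on UMIs summed per mouse and group, 4 libraries, with the mouse as a block. With the block, the p-values weigh a difference against counting error and its variation between these 2 mice, with the error shared across genes. Overall differences between the mice are taken out, and other animals are not covered. All 6 genes rose. Pmel stood at 3.01 UMIs per 10000 in members chosen without it and 0.175 in other cells of R1, and at 0.866 and 0.102 in R2, a log2 fold change of 3.68 ± 0.13 (SE). Trpm1 followed at 2.37 ± 0.11, with a ratio of members to other cells of 6.39 in R1 and 3.99 in R2. Gpnmb was at 1.69 ± 0.11 (ratios 4.47 and 2.14), Mlana at 1.34 ± 0.08 (3.16 and 1.97) and Dct at 1.09 ± 0.06 (2.60 and 1.73), each larger in R1. Tyrp1 moved least, at 3.32 against 1.48 in R1 and 1.81 against 1.16 in R2, with a log2 fold change of 0.92 ± 0.10 (edgeR adjusted p = 5.7e-05, the highest of the 6). Of the other genes tested, 1.00% were called higher in the choice without Pmel, 0.855% without Mlana, 0.917% without Gpnmb, 0.813% without Trpm1, 0.875% without Dct and 0.508% without Tyrp1. Without the mouse as a block, the calls of Pmel and Trpm1 held and those of the other 4 genes did not, and with DESeq2 the adjusted p of Gpnmb was 0.204.

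**Figure D2:**
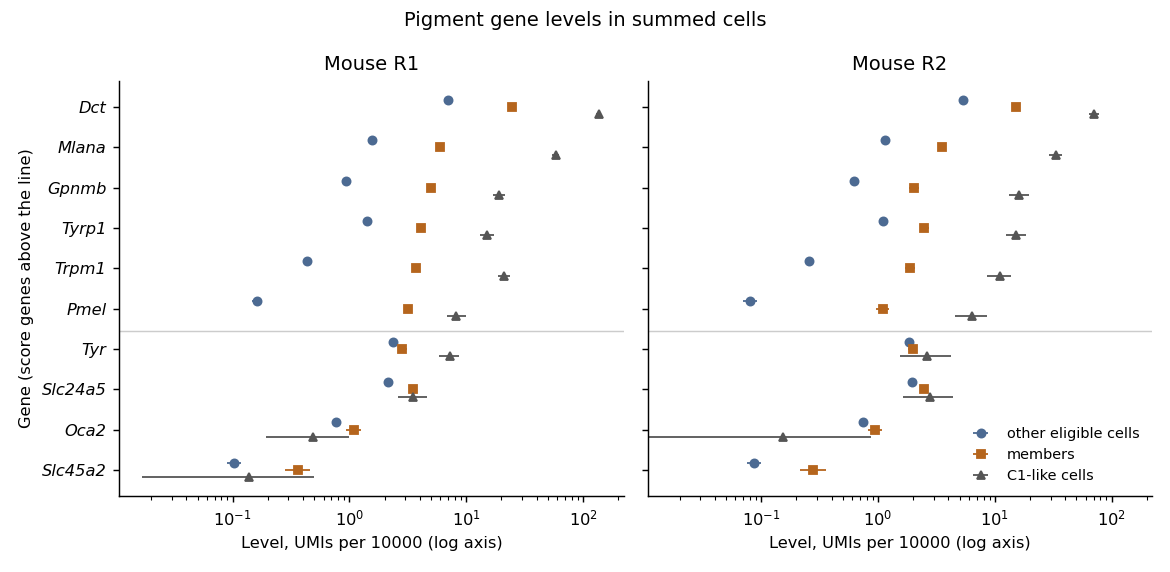
Levels (UMIs per 10000, log axis) of the 6 score genes above the line and of 4 other pigment genes below it, in summed other eligible cells, members and C1-like cells of each mouse, with exact 95% Poisson intervals. The score genes, which chose the members, lie between the other cells and the C1-like cells in both mice. Slc45a2 is higher in members than in other cells (0.359 against 0.103 in R1), and a level of 0 (Slc45a2 in C1-like cells of R2) is not drawn.

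Beyond the score, few pigment genes moved. Of 34 further genes of melanosomes and pigment synthesis, 33 were tested, 3 rose and 0 fell, and their median log2 fold change was 0.04, beside -0.01 over all 11445 genes tested outside the score, of which 1.65% were called, 1.00% as higher and 0.647% as lower. The 3 genes encode melanosomal transporters. Slc45a2 (chr15:11000721-11029233, GRCm38) was at 0.359 UMIs per 10000 in members and 0.103 in other cells of R1, and at 0.279 and 0.0871 in R2, a log2 fold change of 1.75 ± 0.25 that was called in all 14 alternatives. Slc24a5 stood at 3.48 against 2.12 in R1 and 2.48 against 1.94 in R2 (0.54 ± 0.08), and its gene overlaps Myef2 on the opposite strand. Oca2 stood at 1.08 against 0.760 and 0.943 against 0.736 (0.44 ± 0.11), was called in 10 of 14 alternatives and had a log2 fold change of 0.032 without cells bearing markers of other types. Tyr itself was not called, with 2.83 against 2.35 UMIs per 10000 in R1 and 1.97 against 1.83 in R2 (0.20 ± 0.08, edgeR adjusted p = 0.331). Melanosome transport and biogenesis genes such as Rab27a (0.26 ± 0.09), Myo7a (0.15 ± 0.15) and Cd63 (0.01 ± 0.05) were not called either. Among genes of the list with few UMIs, Mlph was at 2.11 ± 0.73 (16 and 4 member UMIs) and Lyst at -2.78 ± 1.34 (1 and 0). Neither was called.

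The label of a mature cell was read against RPE markers that the rule did not use. Ttr, which it did use and which therefore checks nothing, made up a median of 10.7% of the UMIs of members and 11.3% of other cells in R1, and 12.6% and 12.8% in R2, with 5% required. Rpe65 was at 43.1 UMIs per 10000 in members and 48.1 in other cells of R1 and at 49.1 and 48.6 in R2, while C1-like cells had 2.84 and 0.309. Of 8 RPE transcription factor genes tested, 0 were called, with Otx2 at -0.05 ± 0.07 and Mitf at -0.13 ± 0.12 on the log2 scale and a median of -0.13. Best1 and Serpinf1, which are widely used as RPE genes, were near 0 in members and other eligible cells, with 1 Best1 UMI over the members of R1 and 0 in R2, and 1 and 3 Serpinf1 UMIs, while C1-like cells had Serpinf1 at 0.484 and 0.309 UMIs per 10000 from 7 and 2 UMIs.

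Markers of other cells were read beside this. Choroidal melanocytes express the score genes as well, and of 7 melanocyte markers 5 had any UMIs and 3 were tested, none of which was called. Pax3 and Gjc3 had 0 UMIs. Sox10, the most abundant, was at 0.615 UMIs per 10000 in members and 0.595 in other cells of R1 and at 0.474 and 0.558 in R2, and the summed list was at 0.773 against 0.741 and 0.544 against 0.663. Microglial markers summed to 0.0272 against 0.168 in R1 and 0.00929 against 0.0568 in R2, with C1qc as the most abundant gene, and fibroblast markers to 0.0163 against 0.0221 and 0 against 0.00926. Too few markers of other types passed the filter on low counts for a count of calls to say much, with 2 rod, 1 cone, 2 endothelial and 3 pericyte genes tested, none of them called, and 0 of the ciliary margin genes tested. At least 1 UMI of both Pax6 and Dkk3 was found in 4 members of R1 (1.88%) and 0 of R2, against 0.418% and 0.114% of the other cells. The highest doublet scores marked 4.23% and 6.70% of the members and 5.28% and 6.05% of the other cells.

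Across all genes outside the score, 115 were higher and 74 lower in members at an edgeR adjusted p under 0.05, 60.8% of them higher. The direction was the same in both mice for 188 of the 189, and the log2 ratio was larger in R1 for 159. A fit with the mouse as a block favours genes whose mice agree, so the shared direction is no separate evidence. The size of most changes was modest, with a median of 0.60 on the log2 scale. DESeq2 called 30 as higher and 6 as lower (83.3% higher), and edgeR without the block 7 and 1, all of them among the 189. With members chosen within 10 depth groups, 114 genes were higher and 61 lower, of which 85 and 49 were among the 189. An unadjusted p under 0.05 was reached by 1148 genes in the main test.

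**Figure D3:**
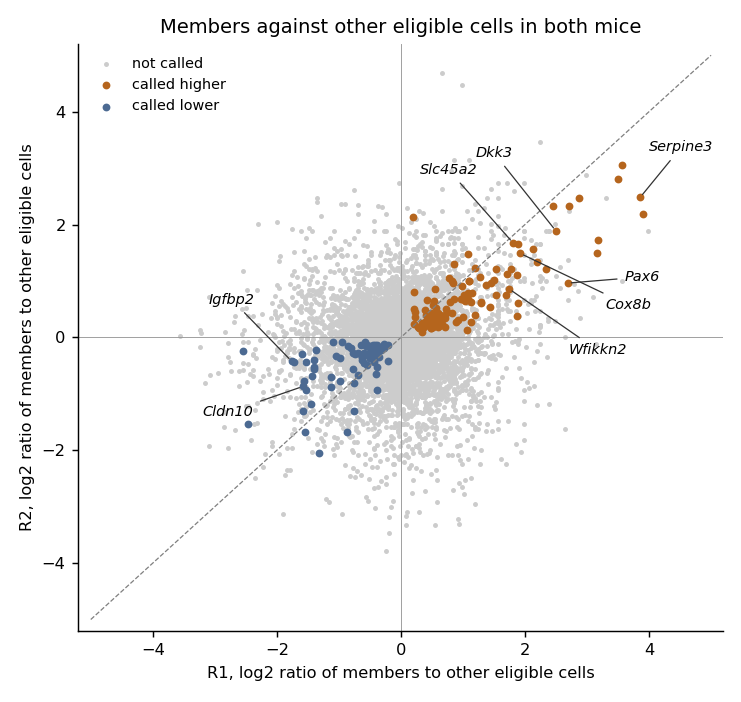
Log2 ratio of the summed level in members to that in other eligible cells, R1 on the x axis and R2 on the y axis, for 11020 tested genes outside the score with UMIs in all 4 libraries (a few lie outside the axes), with called genes in colour and the line of equal change dashed. The called genes lie mostly below the line on the right and above it on the left, since the change was larger in R1 for 159 of 189.

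Serpine3, a member of the serpin family of protease inhibitors, changed most among the genes named by the rule given with the methods. Its level was 6.11 UMIs per 10000 in members (1122 UMIs) and 0.421 in other cells of R1, and 3.26 (702 UMIs) and 0.584 in R2. The log2 fold change was 3.18 ± 0.09, an SE that does not span the difference between these mice. The adjusted p over all alternatives (edgeR or DESeq2) was at most 0.00043. Serpine3 was not spread over the members. At 5000 UMIs per cell its median was 0, its highest value 83 in R1 and 84 in R2, and the leading 10% of members held 87.1% and 90.5% of its UMIs. Read from the other side, members are 10% of eligible cells. Of eligible cells with at least 1 Serpine3 UMI at this depth, 28.3% were members in R1 and 18.9% in R2. The share was 55.3% and 39.1% at 5 UMIs or more. At 10 UMIs or more it was 71.0% (22 of 31 cells) and 44.0% (11 of 25). These cells come from 1 library per mouse and are not replicates, so the shares are a description. Wfikkn2, a secreted inhibitor of myostatin, was at 3.53 against 1.05 in R1 and 1.99 against 1.10 in R2 (1.32 ± 0.09), and Htr3a, a serotonin-gated channel subunit named after its values were seen, at 1.58 against 0.780 and 1.71 against 1.02 (0.88 ± 0.10).

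Cox8b was the most abundant of the genes that rose by over 1 on the log2 scale and were named by the rule. It encodes a tissue-restricted subunit of cytochrome c oxidase. Its level was 21.3 UMIs per 10000 in members and 5.60 in other cells of R1 and 6.97 and 2.49 in R2 (log2 fold change 1.72 ± 0.07), so that other cells of R1 lay close to the members of R2. Unlike Serpine3 it was broadly shared, with a median of 7 UMIs in R1 members and 1 in R2 members at 5000 UMIs per cell, against 1 and 0 in the other cells. Its 2 counterparts in respiration encoded by mitochondrial DNA that rose most, mt-Nd4 and mt-Nd1, changed far less (0.32 ± 0.05 and 0.29 ± 0.06). Among 10 mitochondrial genes tested, these and mt-Cytb rose and 0 fell, beside 1.00% of all genes called higher, with a list median of 0.18 and a summed level 1.26 times that of other cells in R1 and 1.13 times in R2. They were called in 11 (mt-Nd1, mt-Nd4) and 10 (mt-Cytb) of 14 alternatives, and with members chosen within 10 depth groups all 3 lost their call, at log2 fold changes of 0.093 for mt-Nd4, 0.090 for mt-Nd1 and 0.044 for mt-Cytb.

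Among the other genes that rose most, Ggt1, which breaks down extracellular glutathione, was at 1.81 against 0.625 UMIs per 10000 in R1 and 0.873 against 0.379 in R2 (1.39 ± 0.11), and the uroplakin gene Upk3b at 1.01 against 0.274 and 0.915 against 0.426 (1.48 ± 0.13). Igfbp5, which binds insulin-like growth factors, was at 4.35 against 1.69 and 1.76 against 0.919 (1.17 ± 0.09). Aldoc, Car10, Itpr3 and Capn6 completed the list with log2 fold changes from 0.99 to 1.17. Serpine3, Upk3b, Ggt1, Wfikkn2 and Capn6 had few UMIs in C1-like cells, with Serpine3 at 0.0692 and 0 and Upk3b at 0 and 0. A count of 0 in R2 has an upper 95% Poisson limit of 0.571 there, above the 0.426 of Upk3b and the 0.379 of Ggt1 in other cells, so a level below theirs was not detectable at this depth. Cdk2, named after its values were seen, also rose (1.36 ± 0.21). Its gene (chr10:128697939-128705031, minus strand) overlaps Pmel on the opposite strand, at the 5' end of both genes. How far this overlap affects the Cdk2 UMIs was not tested.

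Cldn10, a tight junction claudin, fell most among the genes named by the rule. It was at 0.229 UMIs per 10000 in members and 0.685 in other cells of R1 and at 0.362 and 0.662 in R2 (-1.17 ± 0.16). Igfbp2 was at 0.980 against 3.33 in R1 and 2.01 against 2.69 in R2 (-1.01 ± 0.09), a fall much larger in R1. Rab37 (-0.86 ± 0.13), Jam3, another junction gene (-0.78 ± 0.11), and the cyclin gene Ccnd2 (-0.90 ± 0.17) fell as well. So did the orphan receptor gene Nr2e1 (-0.83 ± 0.16), Pdlim2 (-0.66 ± 0.16) and Fam19a3 (-0.62 ± 0.16). Rab37 and Jam3 were called in 13 of 14 alternatives, Nr2e1 in 12, Ccnd2 in 11, and Pdlim2 and Fam19a3 in 8. Sfrp5, a Wnt inhibitor, was at 0.757 against 1.46 in R1 and 1.56 against 1.65 in R2 (-0.45 ± 0.10), and Sostdc1 was not called (-0.06 ± 0.07). Jun (-0.82 ± 0.15) and Hspa1a (-0.42 ± 0.09) were the 2 called of 9 tested genes of the response to tissue dissociation, beside 0.647% of all genes called lower. The list median was -0.57 and 0 of the list rose, and Jun was called in 10 and Hspa1a in 7 of 14 alternatives. Whether the handling of the tissue had a part in the other differences was not tested.

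Of the genes that mark cluster C1, a part rose. The list was chosen by the study on these samples, so its count is not independent evidence. Of 18 genes, 17 were tested, 7 rose, 2 fell and 8 were not called, beside 1.00% of all genes called higher and 0.647% lower. The median log2 fold change was 0.74, but 0.42 with members chosen within depth groups, 0.45 at 8000 UMIs or more, 0.43 with equal weights of the score genes and 0.40 without cells bearing markers of other types. DESeq2 called 3 of the list as higher, the test without the mouse as a block 1, and the test without cells bearing markers of other types 3, against 5 to 7 in the other alternatives. The median log2 ratio was 0.73 in R1 but 0.26 in R2. The fitted median of 0.74 was the value of Rarres2, which had 8 and 5 member UMIs. The summed level of the list was 1.28 times that of other cells in R1 and 1.15 times in R2. Of the genes not called, Rax, Gpx3, Map1b, Gsn and Rarres2 had 2 to 19 member UMIs in a mouse. Dkk3, a secreted protein of the dickkopf family, was at 0.654 UMIs per 10000 in members (120 UMIs) and 0.116 in other cells of R1 and at 0.237 (51 UMIs) and 0.0640 in R2 (2.24 ± 0.24, called in all 14 alternatives). Aldoc, a glycolytic aldolase, was at 2.05 against 0.711 in R1 and 1.01 against 0.601 in R2 (1.17 ± 0.11). Pax6, a regulator of eye development, rested on few UMIs, with 41 in members of R1 (0.223 against 0.0346) and 9 in members of R2, where 0.0418 had an exact 95% Poisson interval of 0.0191 to 0.0794 that included the 0.0215 of the other cells. Its log2 fold change was 2.02 ± 0.47 (edgeR adjusted p = 0.00206), and 9 of 14 alternatives called it.

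Folr1, the folate receptor (0.62 ± 0.10, called in 13 of 14 alternatives), and Ifitm3 (1.06 ± 0.23, called in 9 of 14 alternatives) rose as well. So did the connexin gene Gja1 (0.38 ± 0.10, called in 8) and the growth factor gene Mdk (0.30 ± 0.07, called in 11). Mdk ranged from 0.15 to 0.38 over the alternatives. Id1 and Id3, inhibitors of basic helix-loop-helix factors, are high in C1-like cells, yet they fell in members (-1.11 ± 0.18 and -0.40 ± 0.09). Id1 was called in 13 of 14 alternatives and Id3 in 9, with a log2 fold change of Id3 of -0.10 in the top 5% of cells. Tmsb4x was at 1.28 UMIs per 10000 in members and 1.31 in other cells of R1 and at 1.46 and 1.42 in R2, while C1-like cells had 38.1 and 35.9. Gpx3, at 29.7 and 192.3 in C1-like cells, was at 0.0109 and 0.0743 in members. The difference between members and other cells was also set against the whole gap between other cells and C1-like cells. As a share of that gap it was 8.34% in R1 and 11.9% in R2 for Mdk, the highest of this list. The share was 4.86% and 2.76% for Folr1, 3.86% and 1.62% for Aldoc and -0.07% and 0.11% for Tmsb4x. For Id3 it was -2.95% and -1.43%, and for Id1 -9.13% and -6.85%, the lowest of this list. Since Pax6 and Dkk3 UMIs define the C1-like cells, their levels there are set by that definition.

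**Figure D4:**
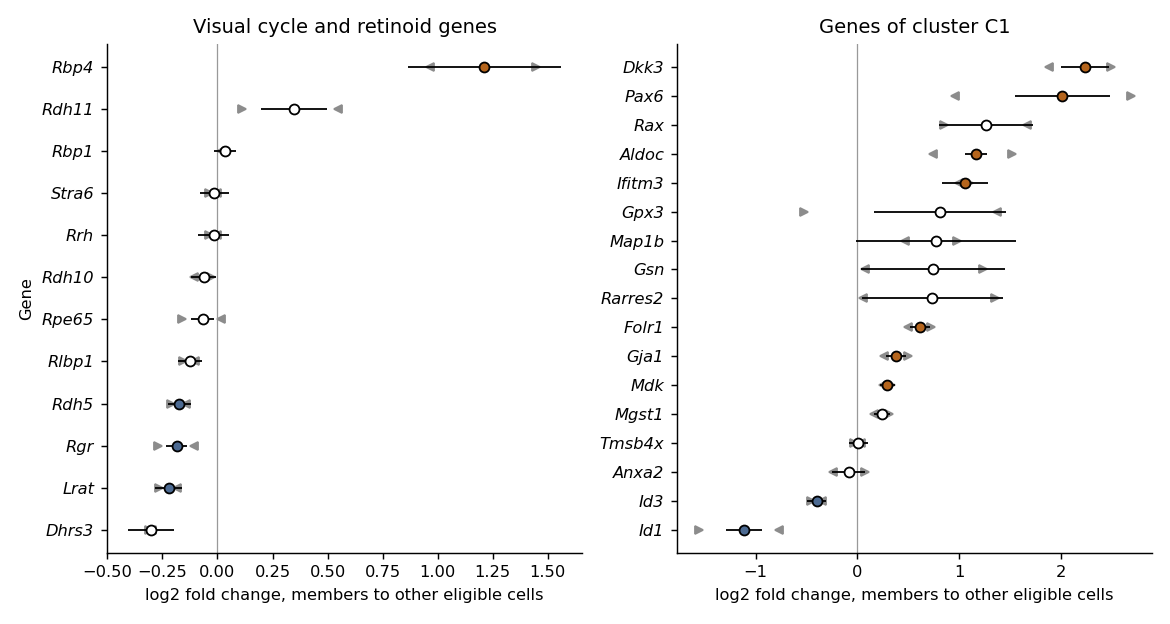
Log2 fold change of members to other eligible cells (circles, edgeR, with standard error) and the log2 ratio within R1 (triangles to the right) and R2 (triangles to the left) for tested visual cycle and retinoid genes and for genes of cluster C1, with called genes filled brown (higher) or blue (lower). Visual cycle genes other than Rbp4 and Rdh11 lie between -0.30 and 0.03, and C1 genes reach from -1.11 for Id1 to 2.24 for Dkk3.

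Of 12 visual cycle genes tested, 3 fell slightly and 1 rose, beside 0.647% of all genes called lower and 1.00% higher, and the median log2 fold change was -0.07. The 3 lower calls became 0 with DESeq2, without the mouse as a block and without cells bearing markers of other types, and 1 at 5000 UMIs per cell and at 8000 UMIs or more. The median was -0.03 with members chosen within depth groups and -0.02 at 8000 UMIs or more. The summed level was 469.5 UMIs per 10000 in members against 526.8 in other cells of R1 (ratio 0.891) and 546.1 against 577.3 in R2 (ratio 0.946). Lrat was at 11.998 against 14.445 in R1 and 13.5 against 15.4 in R2 (-0.22 ± 0.06, edgeR adjusted p = 0.0207). Rgr was at 171.5 against 207.1 and 219.8 against 237.1 (-0.19 ± 0.05, edgeR adjusted p = 0.00814), and Rdh5 at 74.4 against 86.2 and 85.4 against 94.1 (-0.17 ± 0.05, edgeR adjusted p = 0.0413). Rpe65, with the levels given above, was not called (-0.07 ± 0.05, edgeR adjusted p = 0.766), nor was Rlbp1, at 37.2 against 41.4 and 41.4 against 44.4 (-0.12 ± 0.05, edgeR adjusted p = 0.346). The gene that rose, Rbp4, is a plasma retinol carrier with 30 and 26 UMIs in members and was called in 5 of 14 alternatives. The 3 genes that fell were called in 8 or 9 of 14 alternatives, and Rdh5 overlaps Bloc1s1 on the same strand.

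Along the score, some genes moved over most of the range with small reversals, and others unevenly. Eligible cells of each mouse were ordered by score, with the members as the last of 10 groups. Cox8b climbed from 2.11 UMIs per 10000 in the lowest group through 4.93 in the fifth to 11.7 in the ninth and 21.3 in members of R1, and from 1.02 through 2.46 and 4.12 to 6.97 in R2. Between some neighbouring groups Cox8b fell, as from 6.51 in the sixth to 5.92 in the seventh of R1. Igfbp2 declined from 4.79 to 1.99 in the ninth group and 0.980 in members of R1. In R2 it went from 3.29 to 1.85 in the eighth group, 2.12 in the ninth and 2.01 in members. It also rose between some groups, from 2.71 to 2.97 from the sixth to the seventh of R1 and from 3.02 to 3.35 from the second to the third of R2. Dkk3 was at or below 0.168 in the first 8 groups of R1, then 0.307 and 0.654. Serpine3 had its highest level in the members of both mice, 6.11 in R1 and 3.26 in R2, but did not climb steadily. In R1 it was at 1.14 in the sixth group, 0.436 and 0.450 in the next groups and 0.994 in the ninth, and in R2 at 0.785 in the fourth, 0.281 in the sixth and 1.79 in the ninth. The visual cycle sum stayed between 511.4 and 538.4 in the first 9 groups of R1 before 469.5 in members, and between 563.3 and 585.6 before 546.1 in R2. These profiles are a description of cells from 1 library per mouse.

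**Figure D5:**
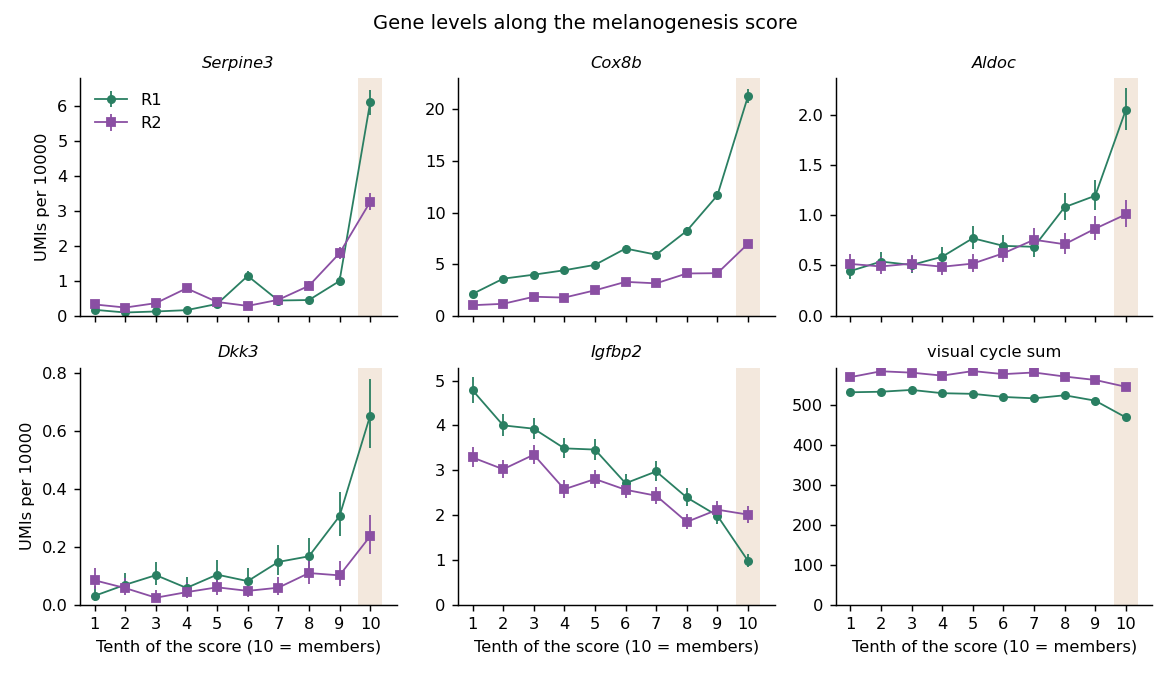
Levels (UMIs per 10000, exact 95% Poisson intervals covering counting error only) in 10 groups of eligible cells ordered by score, for R1 (circles) and R2 (squares), with the members shaded. Cox8b climbs over the groups with small drops on the way. Igfbp2 declines with small rises on the way, in R2 only as far as the eighth group (1.85, against 2.01 in members). Aldoc in R2 is level over the first 5 groups. Serpine3 is highest in members but also has an earlier peak in each mouse (1.14 in the sixth group of R1, 0.785 in the fourth of R2). Dkk3 is highest in members, and the visual cycle sum is 469.5 in R1 members and 546.1 in R2 members.

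Genes of other RPE functions moved in both directions. Of 17 tested, 5 were called, beside 1.65% of all genes. Trf, the transferrin gene (0.22 ± 0.05), and Cdh3, P-cadherin (0.43 ± 0.09), rose, and Kcnj13, a potassium channel of the apical membrane (-0.27 ± 0.06), Itgav, an integrin used in the uptake of outer segments (-0.31 ± 0.08), and Vegfa (-0.33 ± 0.10) fell, with a list median of -0.07. Trf was at 160.9 against 126.7 UMIs per 10000 in R1 and 126.7 against 119.1 in R2, so the difference in R2 was small. Lysosomal genes gave 0 calls of 26 with a median of 0.07, glycolytic genes 1 of 14, Ldhb (0.23 ± 0.06), with a median of 0.08, proliferation genes 0 of 3, and nuclear long RNAs 1 of 3, Neat1 (0.57 ± 0.16). Vegfa, Itgav, Ldhb and Neat1 were each called in 7 of 14 alternatives, Kcnj13 and Trf in 10 and Cdh3 in 11, and Neat1 had a log2 fold change of 0.064 without cells bearing markers of other types.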

How the data were processed

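Single RPE cells of 2 mice were measured by 10x Genomics 3' sequencing. The authors demultiplexed with bcl2fastq 2.20.0.422, aligned to GRCm38 with Cell Ranger 1.2.0 (per the submitters' processing notes) and deposited whole-number UMI counts for each gene in every called cell, not normalized, with ambient RNA, doublets and poor cells still included. Barcodes had 14 bases, and the chemistry version differs between labels and methods.

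Cells with at least 500 genes and at most 5% mitochondrial UMIs were kept (2782 and 2966), and 2127 and 1945 also had at least 5000 UMIs and 5% Ttr. Members and gene lists were chosen with earlier results of these data known. UMIs were summed into 4 libraries (1836219, 21686357, 2152570 and 23764827 UMIs). Genes passing filterByExpr were tested with edgeR 4.0.16 (R 4.3.3, TMM, quasi-likelihood, the mouse as a block because both sums of a pair come from 1 animal, 1 residual degree of freedom, Benjamini-Hochberg adjustment over all genes, false discovery rate 0.05), with DESeq2 1.42.0 as an alternative. Doublets were not removed in the main analysis; an alternative drops the 4% of cells with the highest score against artificial doublets.

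The text names genes of fixed lists, Ttr, and, in each direction, the 10 called genes with the strongest fold change among those that moved alike in both mice and have at least 0.5 UMIs per 10000 in members or reference. Htr3a, Sfrp5, Sostdc1 and Cdk2 fall outside this rule and were named with their values known. Fold changes are given as log2 ± SE, intervals at 95% cover counting error only, and levels are UMIs per 10000. The SE is the size of the fold change over the square root of the edgeR F statistic. That statistic uses an error shared across genes, so the SE can be smaller than the difference between the mice. For Pmel left out of the score, 3.68 ± 0.13 stood beside ratios of 17.1 in R1 and 8.51 in R2. In counts simulated at these library sizes with 200 changed genes, edgeR recovered 13% at a log2 change of 0.5, 62.5% at 1 and 88% at 2. It called 0 genes where none changed. Of its calls, 125 of 134 at a change of 1 and 176 of 184 at 2 were changed genes. DESeq2 recovered 0% at 0.5, 36.5% at 1 and 65% at 2. The simulated counts shared 1 dispersion (0.00651) across genes and had equal proportions in both groups before the change. The real sums also hold genes whose UMIs sit in few members, such as Serpine3. The simulation therefore does not give the rate of false calls or of recovery in the real data. Gene coordinates are those of GENCODE vM21, in which Pmel, Slc24a5, Folr1, Kcnj13, Hspa1a, Serpine3, Rab37 and Fam19a3 overlap a protein-coding gene on the opposite strand, Rdh5 and Trf one on their own strand, and Lrat, Pax6, Jun and Ccnd2 an antisense gene, so their UMIs are uncertain to that extent. UMIs were thinned to 5000 per cell with a fixed seed where cells were compared with each other.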

Additional observations from a re-analysis of the deposited data

Results flagged for a closer look

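C1-like cells had no depth minimum, with medians of 3226 UMIs in R1 and 4253 in R2. Filtered cells with at least 5% Ttr but fewer than 5000 UMIs entered none of the comparisons above. In these unused data, at otherwise equal filters, the same rule was applied within each mouse. It set 60 cells against 536 others in R1 and 100 against 902 in R2. Serpine3 was at 3.05 UMIs per 10000 in these 60 cells (exact 95% Poisson interval 2.35 to 3.89) and 2.47 in the others of R1, a ratio of 1.24 with the interval including the level of the others. In R2 it was at 4.67 against 0.878. Dkk3 was at 1.55 against 0.229 in R1 and 0.410 against 0.129 in R2, outside the intervals of 1.07 to 2.18 and 0.229 to 0.676. With summed cells of 1 library per mouse these values have no test beyond counting error.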

How the results depend on the processing

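In 14 alternatives, the 6 score genes left out kept their direction, the C1 median ranged from 0.40 to 0.80, the median of other pigment genes from 0.02 to 0.09 and the visual cycle median from -0.145 to -0.0201. The counts moved most. DESeq2 called 30 genes higher and 6 lower, with Gpnmb at 1.64 (adjusted p = 0.204). Without the replicate block 7 and 1 genes were called, and Mlana (1.40), Gpnmb (1.80), Dct (1.14) and Tyrp1 (0.96) lost their call; both sums come from the same mouse, so this fit puts the differences between mice into the error. Scores at 5000 UMIs per cell and a minimum of 8000 UMIs each gave 37 lower genes. Without cells with markers of other types, which removed most cells because Acta2 (69.2%) and Sox10 (15.8%) gave most such UMIs, 51 genes were higher and 22 lower and the C1 median was 0.40. The visual cycle median was -0.0977 with equal weights, -0.0296 within depth deciles, -0.145 in the top 5% and -0.0201 at 8000 UMIs. The median UMIs of members over those of the reference, 0.797 on average, became 0.998 within depth deciles, 0.849 at 8000 UMIs and 0.940 without marker-bearing cells. The cause of these shifts was not tested. Leaving out each mouse in turn, which leaves a value without a test, gave 3.09 to 4.10 for Pmel, 0.98 to 1.66 for Mlana, 1.10 to 2.16 for Gpnmb, 2.00 to 2.68 for Trpm1, 0.79 to 1.38 for Dct and 0.64 to 1.17 for Tyrp1. The C1 median was then 0.26 to 0.73, that of the visual cycle -0.0977 to -0.0525, that of other pigment genes -0.05 to 0.12 and the depth ratio 0.767 to 0.827. No count of calls can be had from 1 mouse. Every lower value in size for the score genes and the C1 list was that of R2. Genes with few member UMIs, such as Pax6 with 41 and 9, have wide counting intervals. Of the called genes, 14 had fewer than 10 member UMIs in a mouse. How recovery depends on the number of UMIs was not tested.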

Other observations

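Some called genes lay below the level required for naming and are given after their values were seen. Lgi1, a secreted protein of neurons, was at 0.376 UMIs per 10000 in members and 0.0687 in other cells of R1 and at 0.190 and 0.0379 in R2 (2.40 ± 0.30). Egfl7, an endothelial secreted factor, was at 0.223 against 0.0198 and 0.0557 against 0.00800 (3.21 ± 0.56), resting on 41 and 12 member UMIs. Opn4, which encodes melanopsin, was at 0.158 against 0.0360 and 0.0557 against 0.0189 (1.89 ± 0.49) with 29 and 12 member UMIs. The growth factor gene Igf2 fell, with 0.0327 against 0.180 and 0.0650 against 0.189 (-1.89 ± 0.34).

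In cells below 5000 UMIs, Cox8b was at 43.2 UMIs per 10000 in the 60 highest-scoring cells and 10.9 in the others of R1, and at 8.19 and 2.88 in R2. Igfbp2 was at 0.751 against 2.23 and 1.61 against 2.40, and Rpe65 at 33.5 against 46.9 and 50.3 against 53.8. The differences of R1 in 3 other genes did not repeat in R2, where Slc45a2 was at 0.0819 in the highest-scoring cells (3 UMIs) and 0.153 in the others, Cldn10 at 0.628 against 0.644, and Aldoc at 0.874 (exact 95% Poisson interval 0.598 to 1.23) against 0.730, beside 0.375 against 0.130, 0.141 against 0.431 and 2.25 against 0.623 in R1.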
